A study of Mus musculus with 7 samples.

Results

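The genes described here encode the contractile and filament proteins of smooth muscle: Acta2, Actg2, Myh11, Des, Tagln, Cnn1, Smtn, Myl9, Lmod1 and Synm. They were chosen by gene symbol, as proteins of the intestinal muscle layers, with earlier results of the same genotype comparison known, so their difference between genotypes is given as a description without a test. All 10 were found among the 14795 genes of the deposited table. RNA came from whole duodenum of male mice, labelled C57BL/6 and described in the methods of the study as mostly of C57BL6/J background, with 3 Ppara lox/lox mice, labelled as controls, and 4 Ppara I-KO mice. In both groups Ppara, the gene of the fatty acid-sensing receptor PPARα, carries loxP sites, and the controls were lox/lox littermates without the recombinase. In Ppara I-KO mice Cre is driven by the Villin promoter, which is active in intestinal epithelium and not in the muscle layers, so the muscle layers are not a site of recombination by design. The methods of the study give a high-fat diet of 8 weeks for mice whose duodena were sequenced, whereas the sample labels name no diet and describe starvation from midday to the early evening, refeeding and killing at midnight. The age of these mice is not given in the sources used here.

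Smooth muscle contracts when myosin pulls on actin filaments after the myosin light chain has been phosphorylated. The wall of the duodenum holds smooth muscle in the inner circular and outer longitudinal layers, in the thin muscularis mucosae below the crypts, in strands within the villi and around blood vessels. In RNA from a whole piece of gut the genes of these proteins are used as markers of how much muscle the piece held. In such bulk RNA, fewer cells of a type and less RNA per cell cannot be told apart.

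The deposited values are normalised read counts (CPM), scaled to an adjusted library size. Reads assigned to the genes of the table numbered about 20745155 to 25865823 in a library. The member with the fewest reads, Lmod1, rested on at least 486 reads in every library, which is a counting error of at most 4.54%. The spread between libraries and not the depth therefore set the precision. That spread holds differences between mice, sampling and library preparation together. Values are listed in the order of the replicate numbers, 1 to 3 for lox/lox and 1 to 4 for I-KO. Ppara itself measured 53.42, 49.29 and 63.18 CPM in the controls, against 33.05, 40.58, 47.51 and 69.90 CPM in the libraries labelled I-KO. The library labelled I-KO 4 therefore lay above every lox/lox library, and a value summed over all exons of the gene does not show whether the floxed part was removed. Epithelial genes were high in every library, with Vil1, a brush border protein, between 2735.18 and 3383.29 CPM.

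The promoters of contractile genes are known to be bound by serum response factor (SRF) at the CArG box, a pair of cytosines and a pair of guanines around 6 bases of A or T. RefSeq windows from 250 bases before to 50 bases after the gene start (assembly GRCm38.p6) were at hand for 7 of the 10 genes, and those of Actg2, Myh11 and Tagln were not used here. A CArG box was found in 1 of these 7 windows, that of Myl9, against 1.63% of all 32851 windows. When 1 of the 6 central bases was allowed to be C or G, 3 of the 7 windows (Acta2, Myl9 and Synm) held a match, against 9.98% of all windows, and those of Des, Cnn1, Smtn and Lmod1 held none. The box reads alike on both strands, and the letters describe these windows without showing a bound site. The matches of Acta2 and Myl9 are printed because these genes had the highest length-scaled levels of the group. The capitals mark the 10 bases of the box or near match, and each sequence runs 5′ to 3′ along the gene's strand.
Acta2, near match starting 84 bases before the gene start (chr19:34255438-34255467, minus strand): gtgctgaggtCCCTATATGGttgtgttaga
Acta2, near match starting 34 bases before the gene start (chr19:34255388-34255417, minus strand): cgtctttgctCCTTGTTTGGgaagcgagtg
Myl9, CArG box starting 161 bases before the gene start (chr2:156775293-156775322, plus strand): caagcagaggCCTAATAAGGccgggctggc
Myl9, near match starting 99 bases before the gene start (chr2:156775355-156775384, plus strand): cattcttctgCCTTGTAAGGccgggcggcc
Both Myl9 stretches lay outside annotated exons, whereas both Acta2 stretches lay within a longer first exon that GENCODE M21 gives for Acta2, in its untranslated part.

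The actins form the thin filaments on which myosin pulls. Acta2 encodes alpha smooth muscle actin, found in vascular and visceral muscle alike (chr19:34241090-34255590, minus strand, GRCm38). It measured 254.49, 292.42 and 264.26 CPM in the lox/lox libraries and 364.72, 284.72, 283.64 and 256.25 CPM in the I-KO libraries. I-KO 1 was 1.25-fold above the next library, and the other 6 libraries overlapped between genotypes. The lox/lox mean was 270.0 ± 19.7 CPM (SD, n = 3), the I-KO mean was 297.0 ± 46.8 CPM (SD, n = 4), and their log2 difference was 0.13 ± 0.12 (SE). Actg2, the enteric gamma actin that is the main actin of visceral smooth muscle (chr6:83512905-83536265, minus strand), measured 86.89, 98.75 and 72.80 CPM in the lox/lox libraries and 115.38, 99.86, 114.62 and 80.24 CPM in the I-KO libraries. Here I-KO 3 came within 1.01-fold of I-KO 1, and lox/lox 3 and the library labelled I-KO 4 were lowest. Its log2 difference of 0.24 ± 0.15 (SE) was the highest among the 10 genes. Actg2 was at between 27.5% of the Acta2 value in lox/lox 3 and 40.4% in I-KO 3, so the actins did not move in fixed proportion. None of the 2096 windows of 100 bases, the read length, of the Acta2 transcript occurred in the Actg2 transcript or in another actin, so whole identical reads could not be shared between them.

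Myosin supplies the force. Myh11 encodes the heavy chain of smooth muscle myosin (chr16:14194535-14291372, minus strand) and had the highest CPM of the group, which also reflects its length. It measured 419.48, 482.97 and 396.89 CPM in the lox/lox libraries and 557.07, 429.87, 438.73 and 417.26 CPM in the I-KO libraries. The other 3 I-KO libraries lay within the lox/lox range, whose mean was 433.0 ± 44.6 CPM (SD, n = 3), and the I-KO mean was 461.0 ± 64.8 CPM (SD, n = 4). Without I-KO 1 the I-KO mean was 429.0 ± 10.8 CPM (SD, n = 3). Myl9, the regulatory light chain whose phosphorylation starts contraction (chr2:156775420-156781658, plus strand), measured 166.03, 198.09 and 149.38 CPM in the lox/lox libraries and 211.46, 179.13, 180.51 and 149.10 CPM in the I-KO libraries. I-KO 1 and lox/lox 2 were the highest libraries, 1.07-fold apart. The log2 differences were 0.08 ± 0.12 (SE) for Myh11 and 0.07 ± 0.14 (SE) for Myl9.

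**Figure D1:**
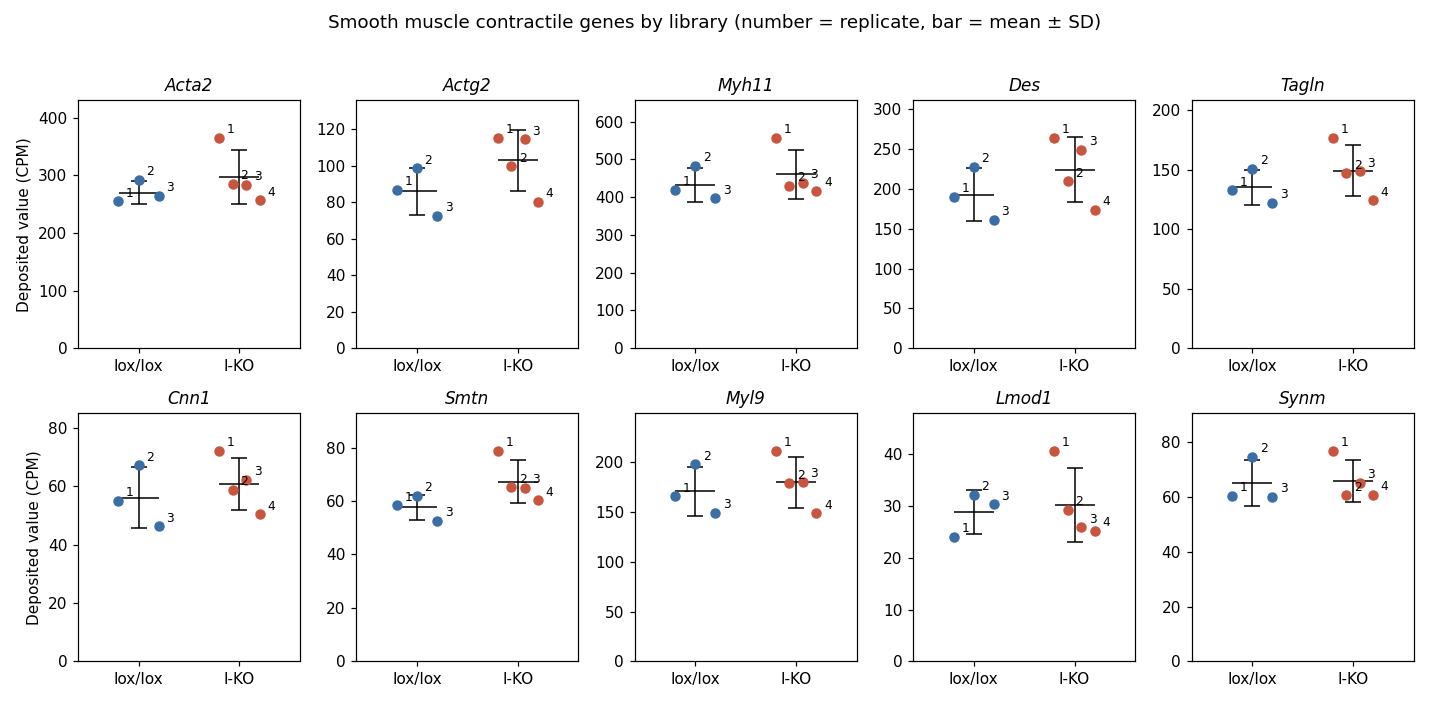
Deposited values (CPM, axis from 0) of the 10 contractile genes in the 3 lox/lox (blue) and 4 I-KO (red) libraries, numbered by replicate, with bars for the group mean ± SD. I-KO 1 is the highest library in all 10 panels, and the groups overlap in each.

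Several members bind the actin filament and tune or organise it. Tagln, transgelin or SM22, is an actin-bundling protein and an early marker of the lineage (chr9:45929619-45936058, minus strand). It measured 132.50, 150.57 and 122.07 CPM in the lox/lox libraries and 176.54, 146.72, 148.63 and 124.30 CPM in the I-KO libraries, a log2 difference of 0.14 ± 0.13 (SE). I-KO 1 exceeded lox/lox 2, the next library, by 1.17-fold. Cnn1, the calponin that restrains myosin activity (chr9:22099216-22109630, plus strand), measured 54.90, 67.22 and 46.32 CPM in the lox/lox libraries and 72.03, 58.73, 62.24 and 50.31 CPM in the I-KO libraries. Its lox/lox values alone spanned most of the range of all 7, and the log2 difference was 0.12 ± 0.15 (SE). Smtn, smoothelin of contractile smooth muscle cells (chr11:3517523-3540612, minus strand), measured 58.45, 61.86 and 52.53 CPM in the lox/lox libraries and 78.69, 65.09, 64.99 and 60.35 CPM in the I-KO libraries. Of the 10 genes it came closest to a separation of the genotypes, since 3 of the I-KO libraries lay above all lox/lox libraries and the library labelled I-KO 4 lay below lox/lox 2 alone. Its log2 difference was 0.22 ± 0.11 (SE). Lmod1, leiomodin, which starts new actin filaments (chr1:135324807-135368065, plus strand), measured 23.99, 32.09 and 30.29 CPM in the lox/lox libraries and 40.57, 29.27, 25.85 and 25.22 CPM in the I-KO libraries. I-KO 1 stood 1.26-fold above the next library, and the other 3 I-KO libraries were below 2 of the 3 lox/lox libraries. The log2 difference of Lmod1 was 0.05 ± 0.17 (SE).

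Intermediate filaments hold the contractile apparatus to the cell membrane. Des encodes desmin, their main subunit in muscle (chr1:75360329-75368579, plus strand). It measured 190.27, 227.95 and 161.04 CPM in the lox/lox libraries and 264.19, 209.85, 249.42 and 173.99 CPM in the I-KO libraries, with a log2 difference of 0.21 ± 0.17 (SE). As for Actg2, I-KO 1 and I-KO 3 were the highest and lox/lox 3 and the library labelled I-KO 4 the lowest libraries. Synm, synemin, a large partner of desmin (chr7:67730160-67759742, minus strand), measured 60.38, 74.68 and 59.95 CPM in the lox/lox libraries and 76.73, 60.57, 65.10 and 60.72 CPM in the I-KO libraries. Only I-KO 1 and lox/lox 2 stood above a cluster of 5 libraries from both genotypes, and the log2 difference of 0.02 ± 0.12 (SE) was the lowest of the group.

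Levels of different genes were compared after division by the length of the annotated exons. Myl9 was highest at 152.0 ± 20.2 CPM per kb (SD, n = 7 libraries), followed by Acta2 at 130.0 ± 17.2, and their ranges overlapped. Tagln at 72.0 ± 9.47, Actg2 at 61.3 ± 10.5, Myh11 at 59.1 ± 7.19 and Des at 56.2 ± 10.3 CPM per kb formed a middle group in which each overlapped its neighbour. Below a 2.61-fold step came Cnn1 at 21.5 ± 3.34 and Smtn at 14.4 ± 1.85 CPM per kb, which overlapped each other. Synm at 8.25 ± 0.913 and Lmod1 at 7.50 ± 1.43 CPM per kb were lowest and could not be ordered. On this scale Myl9, Acta2, Tagln, Actg2, Myh11 and Des were above Cnn1, Smtn, Synm and Lmod1 in every library. Exons of unlisted genes on the opposite strand covered 62.4% of the Tagln exons and 16.3% of those of Smtn, and those of Pcsk7 covered 5.43% of Tagln. Whether strand was used in counting is not stated in the sources, so reads of these pairs may not be separable.

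**Figure D2:**
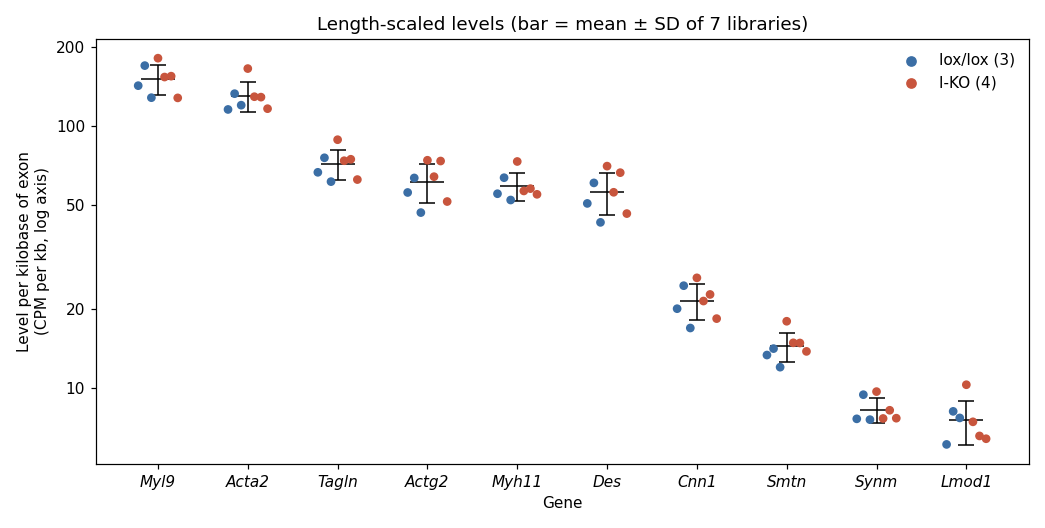
CPM per kilobase of exon (log axis) of the 10 genes, ordered by mean, with 1 point per library (lox/lox blue, I-KO red) and bars for the mean ± SD of 7 libraries. The steps after Acta2, after Des and after Smtn are the places in this order where the ranges of neighbours do not overlap.

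The 10 genes mostly rose and fell together from library to library, Lmod1 least closely, and the order of the libraries cut across the labelled genotypes. I-KO 1 was the highest library for 10 of 10 genes, against 22.5% of the 13399 genes that passed the filter on low values. Lox/lox 2 was the second highest for 7 genes, and lox/lox 3 was the lowest for 7. The summed level of the 10 genes measured 1447.4, 1686.6 and 1355.5 CPM in the lox/lox libraries and 1957.4, 1563.8, 1633.7 and 1397.7 CPM in the I-KO libraries, between 0.138% and 0.19% of all values of a library. The highest library was thus 1.44-fold above the lowest, and 1.24-fold without I-KO 1. Lox/lox 3 and the library labelled I-KO 4, whose Ppara value was above every control, stood at the bottom of this order, and I-KO 1 and lox/lox 2 at its top. As a share of all values of a library, lox/lox 1 was lowest at 0.138%, followed by lox/lox 3 at 0.14% and I-KO 4 at 0.144%. I-KO 1 at 0.19% and lox/lox 2 at 0.17% were again highest, so the bottom of the order depended on the scaling. The median SD of the 10 genes over the 7 libraries was 0.188 on the log2 scale, against a median of 0.147 over all genes that passed the filter. Without I-KO 1 these medians were 0.148 and 0.136.

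Pearson's r between 2 of the genes over the 7 libraries, on log2 values, had a median of 0.86 over the 45 pairs. Points of such a correlation share the library and its scaling, and r is given as a description. The closest pairs, each with r of 0.98, were Actg2 and Des, the enteric actin and the desmin filament, and Cnn1 and Myl9. The loosest pair was Actg2 and Lmod1 with r of 0.41. Without I-KO 1 the median r was 0.78, and the lowest, between Smtn and Lmod1, was -0.11. In I-KO 3, Actg2 deviated by 0.28 and Des by 0.26 on the log2 scale from their means, whereas Lmod1 deviated by -0.17. Lmod1 came to 10.4% of the Des value in I-KO 3 and to 18.8% in lox/lox 3.

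**Figure D3:**
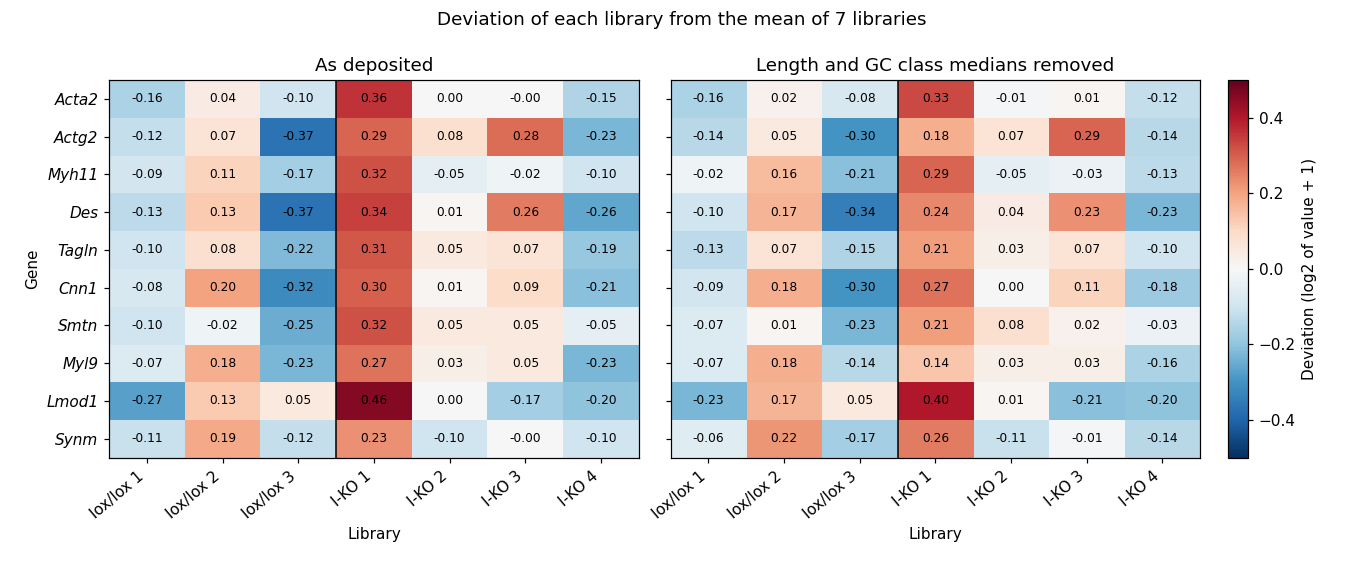
Deviation of each library from the mean of 7 libraries, in log2(value + 1), for the 10 genes as deposited (left) and after the median of genes of like transcript length and GC content was removed from each library (right). The column of I-KO 1 runs from 0.23 to 0.46 on the left and from 0.14 to 0.40 on the right, while I-KO 3 is high for Actg2 and Des and low for Lmod1.

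Libraries also differed by gene length and base composition. In I-KO 1 the fifth of genes with the highest GC content had a median deviation of 0.119 on the log2 scale and the fifth with the lowest of -0.145, and the 10 genes had a GC content of 49.6% to 60.1%. After the median of each of 25 classes of length and GC content had been removed, I-KO 1 was still highest for 8 of the 10 genes, with I-KO 3 highest for Actg2 and lox/lox 2 for Myl9. The deviation of I-KO 1 then had a median over the 10 genes of 0.25, against 0.32 as deposited, and the highest summed level was 1.37-fold above the lowest. Lox/lox 3 was again the lowest library for 7 genes.

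Between genotypes, the mean was higher in I-KO mice for 10 of 10 genes, by a median log2 difference of 0.12 (range 0.02 to 0.24), against 0.002 over all 13399 genes. In none of the 10 did the genotypes separate, and 6.19% of all genes had no overlap between genotypes. The summed level averaged 1496.5 ± 171 CPM (SD, n = 3) over the controls, and the I-KO average was 1638.2 ± 235 CPM (SD, n = 4). Without I-KO 1 the I-KO mean was 1531.8 ± 121 CPM (SD, n = 3), only 6 of the 10 genes had a log2 difference above 0, and their median log2 difference was 0.03. Without lox/lox 3 the median was 0.08 with 7 genes above 0, without lox/lox 2 it was 0.20, and without the library labelled I-KO 4 it was also 0.20.

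**Figure D4:**
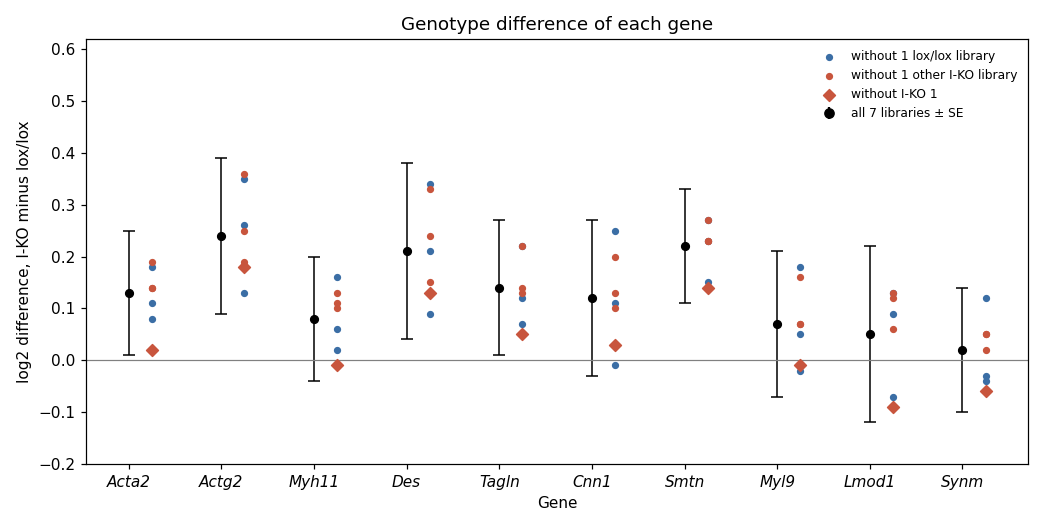
Log2 difference of each gene, I-KO minus lox/lox, from the fit to all 7 libraries (black, ± SE) and with each library left out in turn (blue for lox/lox, red for I-KO, diamonds for I-KO 1). Without I-KO 1 the differences run from -0.09 to 0.18, and from 0.02 to 0.24 with all libraries.

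Other genes of the contractile pathway were taken from lists of 55 genes, of which 54 were in the table and passed the filter. By limma 0 rose and 0 fell at an adjusted p of 0.05, which 0.0299% of all genes passed. An unadjusted p below 0.05 was found for 1 of the 54, against 4.74% of all genes, namely Chrm3, a muscarinic receptor (log2 difference 0.26 ± 0.11 SE, adjusted p = 0.954), which is named after its value was seen. The smallest adjusted p among them was 0.954. Filament proteins and light chain regulators (26 genes) had a median log2 difference of 0.03. Myl6, the essential light chain shared with non-muscle cells, averaged 805.0 CPM in controls and 874.0 CPM in I-KO mice. Mylk, the kinase that phosphorylates Myl9, was at 571.0 and 557.0 CPM, and Tpm1, a tropomyosin, at 428.0 and 433.0 CPM. For these 3 genes the log2 differences were 0.11, -0.04 and 0.01, each smaller than its SE. Genes of calcium handling, channels and receptors (18 genes) had a median of 0.03, led in level by Itpr1, the calcium release channel, at 105.0 and 101.0 CPM, Pde5a, which breaks down cyclic GMP, at 80.9 and 81.8 CPM, and Atp2b4, a calcium pump, at 47.8 and 48.9 CPM. Transcription factors of smooth muscle (10 of 11 genes in the table) had a median of 0.09. Of these Gata6 was at 92.8 and 97.1 CPM, Srf at 44.7 and 47.3 CPM and its coactivator gene Mkl2 at 37.4 and 37.1 CPM.

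These pathway genes followed the contractile genes to differing degrees, on values from which the length and GC class medians were not removed. The part of base composition in this likeness was not tested. An r of at least 0.8 to the mean profile of the 10 genes over the 7 libraries was found for 7 of 26 filament and light chain genes, 2 of 18 genes of calcium, channels and receptors and 2 of 10 transcription factors, against 3.88% of 13389 other genes. Myl6 had an r of 0.90 and Srf of 0.89. Mylk had an r of 0.56 and Tpm1 of 0.50, and both varied less, by 1.16-fold and 1.19-fold from the lowest to the highest library. Itpr1 went its own way with an r of -0.14 and was highest in lox/lox 3 at 150.55 CPM, the library lowest for 7 of the 10 contractile genes. Mkl2 had an r of -0.91 but varied by only 1.12-fold from the lowest to the highest library. Of the filament and light chain genes Ppp1cb had an r of -0.87 and Rock1 of -0.84, and they varied by 1.57-fold and 1.41-fold. Over all genes the profile was most like those of Pop7, Gm20605, Glrx3, Nrf1, Morf4l1, Mfsd5, Dact3, Slc24a3, Wscd2 and Popdc2. Their r lay between 0.968 and 0.984 over the 7 libraries, the highest of 13389 genes. An r of at least 0.9 was found for 112 genes and one of at most -0.9 for 172. In all 10 named genes I-KO 1 was the highest library. Without I-KO 1 their r lay between 0.92 and 0.98, but they had been picked for a high r over all 7 libraries. Pop7, the closest, measured 10.32, 12.65 and 9.94 CPM in the lox/lox libraries and 13.99, 11.39, 11.28 and 9.92 CPM in the I-KO libraries.

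Markers of other tissues were compared with the contractile genes library by library. Pancreatic acinar genes (8 of 8 in the table) summed to 20.4, 67.6 and 20.9 CPM in controls and to 300.7, 31.1, 16.4 and 24.9 CPM in I-KO replicates 1 to 4. The libraries highest and second highest in the summed contractile genes, I-KO 1 and lox/lox 2, were thus also highest and second highest in acinar genes. The protease gene Ctrb1 was at 79.22 CPM in I-KO 1 and 10.98 CPM in lox/lox 2, against at most 0.71 CPM in the other 5, and the elastase gene Cela2a at 54.07 and 8.84 CPM, against at most 0.24 CPM. Clps, colipase, was at 16.21 to 32.09 CPM in every library and made up most of the acinar sum in the 5 libraries other than I-KO 1 and lox/lox 2. Without both libraries, a setting chosen after the data were seen, the median log2 difference of the contractile genes was 0.12, as with all 7, and the highest summed level was 1.21-fold above the lowest. The part of pancreatic tissue in the levels of the contractile genes was not tested.

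Striated muscle genes (4 of 9 in the table) summed to 14.3 to 22.4 CPM in controls and 16.2 to 73.4 CPM in I-KO mice. In I-KO 1 most of this was Acta1, the skeletal muscle actin, which measured 60.30 CPM there and 2.12 to 13.29 CPM in the other libraries, while Ckm, muscle creatine kinase, was at 6.86 to 10.30 CPM and Mylpf, the fast light chain, at 1.50 to 2.40 CPM in the 7 libraries. I-KO 1 was 4.54-fold above the next library for Acta1 and 1.15-fold for Ckm, and Mylpf was highest in the library labelled I-KO 4. Markers of vessel cells also had their highest sums in I-KO 1. Endothelial genes (7 of 7, led by Kdr, Pecam1 and Eng) summed to 113.5 to 136.8 CPM in controls and 128.4 to 166.0 CPM in I-KO mice, and pericyte genes (6 of 7, led by Rgs5, Pdgfrb and Abcc9) to 115.7 to 135.2 CPM and 117.5 to 154.8 CPM. Of these named vessel genes only Pdgfrb had no overlap between genotypes, which 6.19% of all genes had. It was at 18.81 to 23.10 CPM in controls and 23.44 to 30.13 CPM in I-KO mice (adjusted p = 0.83 by limma). Acta2, Myh11, Tagln and other members are also made by the muscle cells of vessels, and the part of vessels in their levels was not tested.

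Cells that lie within the muscle layers gave a mixed picture. Enteric neuron genes (13 of 13, led by Vip, Ret and Uchl1) summed to 60.1 to 66.4 CPM in controls and 57.9 to 76.4 CPM in I-KO mice, with I-KO 1 highest. Genes of the interstitial cells of Cajal, the pacemakers of gut muscle (4 of 4, led by Kit, Ano1 and Etv1), summed to 24.5 to 35.4 CPM and 27.6 to 34.6 CPM, and I-KO 1 was not the highest at 32.2 CPM. Mesothelial genes (3 of 4: Upk3b, Msln and Lrrn4), of the outer covering of the gut, summed to 4.2 to 7.0 CPM in controls and 3.4 to 5.2 CPM in I-KO mice, with lox/lox 3, low in contractile genes, the highest. Among these lists, enteric neurons had their highest sum where the contractile genes did, and Cajal cells and mesothelium did not.

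Epithelial genes (8 of 8, led by Krt8, Vil1 and Epcam) summed to 8886.2 to 10393.9 CPM in controls and 9675.4 to 11171.5 CPM in I-KO mice, with I-KO 3 the highest. The summed contractile genes came to 13.9%, 17.0% and 15.3% of the summed epithelial genes in the lox/lox libraries and to 18.5%, 14.8%, 14.6% and 14.4% in the I-KO libraries. Set against epithelium, 3 of the 4 I-KO libraries thus lay between the lox/lox libraries, and I-KO 1 again lay above all others. Fibroblast genes (10 of 10, led by Col3a1, Col6a1 and Col1a2) summed to 350.8, 436.2 and 494.0 CPM in controls. In I-KO replicates 1 to 4 they summed to 519.1, 505.9, 478.1 and 495.5 CPM, so only I-KO 3 lay below the highest control. Col3a1 was at 84.96 to 128.67 CPM in controls and 138.16 to 145.22 CPM in I-KO mice, and Col6a1 at 63.29 to 86.36 and 87.84 to 97.35 CPM. Neither overlapped between genotypes, as held for 6.19% of all genes, whereas Col1a2 overlapped. For Col3a1 and Col6a1 the adjusted p by limma was 0.887 and 0.954. Leukocyte genes (6 of 6, led by Ptprc, Csf1r and Cd79a) summed to 212.5 to 323.9 CPM in controls and 243.0 to 342.1 CPM in I-KO mice. I-KO 1 was highest in both lists. Adipocyte genes (5 of 6, led by Fabp4, Cfd and Adipoq) summed to 19.0 to 34.6 CPM and 19.6 to 28.6 CPM, and genes of Brunner glands and stomach (3 of 9: Gkn3, Pgc and Tff2) to 1.9 to 2.7 CPM and 1.7 to 5.0 CPM. Of the 63 genes of these cell lists that passed the filter, limma called 0 at an adjusted p of 0.05, while 6 had an unadjusted p below 0.05.

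**Figure D5:**
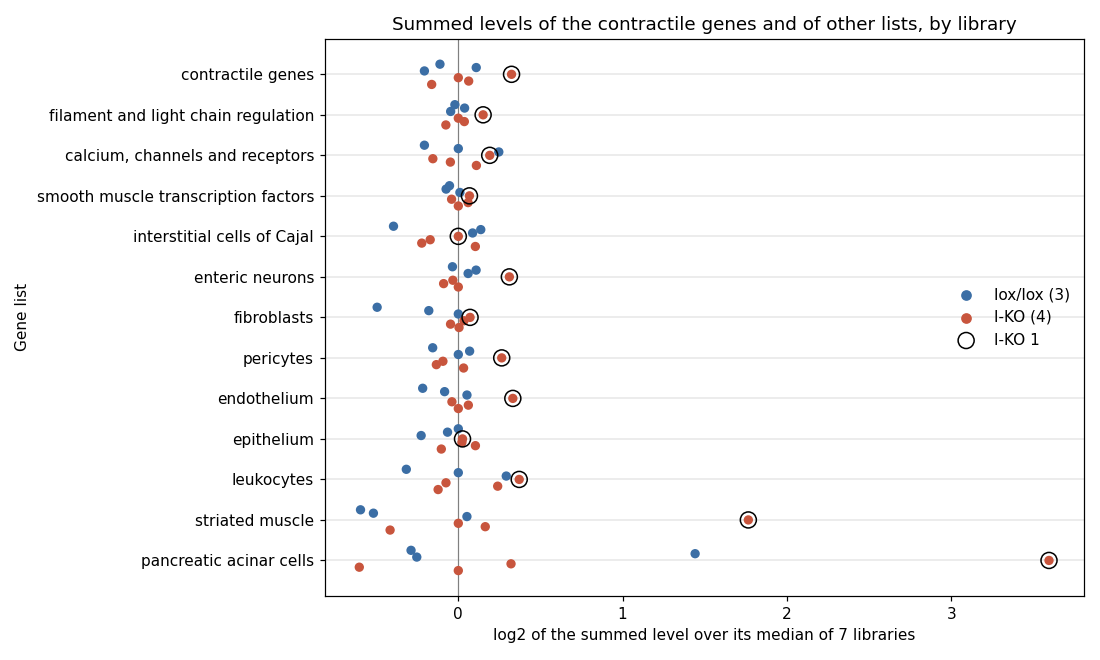
Summed level of the contractile genes and of 12 other lists in each library, as log2 of its ratio to the median of the 7 libraries (lox/lox blue, I-KO red, I-KO 1 circled). I-KO 1 is the highest library for the contractile genes, for acinar and striated muscle genes and for the filament, transcription factor, neuron, fibroblast, pericyte, endothelial and leukocyte lists, and lies at the median for interstitial cells of Cajal.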

How the data were processed

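The members and the lists beside them were chosen with earlier results of these data known. Duodenal RNA of 3 Ppara lox/lox and 4 Ppara I-KO mice was sequenced with 100-base single reads from TruSeq stranded mRNA libraries. The authors deposited 1 table of signal values, which are read counts per gene (CPM) scaled to an adjusted library size and given to 2 decimals. The submitters' processing notes name FastQC 0.11.2, TopHat2 2.0.13, Picard 1.80, HTSeq 0.6.1, edgeR and mm10. Column totals were between 969589 and 1098618, and 1 nameless line was dropped. Low values lay on steps of 1 read, from which the depth was taken, but fewer than 95% lay within 0.1 step in 5 of 7 libraries, so no count test was run.

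Genes with a value above 1 in 3 or more libraries (13399) were tested. A model of log2(value + 1) was fitted by limma 3.58.1 in R 4.3.3, on genotype alone, with Benjamini-Hochberg adjustment. Differences on this scale understate changes of low genes. The labels number biological replicates, and p-values measure the spread between these samples. The fit was tested on simulated reads of independent libraries, with the same relative spread for every gene. Such data hold no shifts shared by many genes of a library. Exon lengths, coordinates and overlaps come from GENCODE M21, and length and GC classes covered 94.3% of the genes tested. By rule the text names the 10 members, up to 3 genes with the highest mean of each list, list genes past the threshold and the 10 genes most like the members. A further marker list is not reported here. Other steps used matplotlib 3.10.9, pandas 2.3.3, numpy 2.4.6 and Python 3.11.15.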

Additional observations from a re-analysis of the deposited data

Results flagged for a closer look

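In the I-KO group of 4, a library was taken as standing apart where its gap to the nearest other library exceeded Dixon's 95% critical value for the gap as a share of the group's range, which happens by chance in about 1 of 20 groups. Of 81 quantities searched (the members and their sum, list sums and named genes) 10 met this, against 4 by chance if they were independent, which genes of 1 library are not. I-KO 1 was the library standing apart in 9 of them. Among the contractile genes this held for Myh11 alone, with a gap of 0.846 of the range (557.0 CPM against 417.0 to 439.0 CPM). Of the contractile pathway it held for Atp2b4 (gap 0.952, 58.5 CPM against 45.4 to 46.0 CPM), and of the other cell lists for the endothelial gene Pecam1 (gap 0.854). Acta1 had a gap of 0.87 and the sum of striated muscle genes one of 0.86. The sum of acinar genes had a gap of 0.948, Ctrb1 of 0.991 and Cela2a of 0.996, and Tff2, a trefoil peptide of gastric and Brunner gland mucus, had one of 0.958 at 1.2 CPM against at most 0.05 CPM. The remaining flag was the sum of mesothelial genes, which was low in I-KO 2 (gap 0.898, 3.41 CPM against 4.99 to 5.17 CPM).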

How the results depend on the processing

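The contractile genes were refitted with a pseudocount of 0.5, no filter, 2 other scalings, a replicate block, an intensity trend and class medians removed. Each library was also left out in turn, as were both libraries high in acinar genes. The log2 differences moved by less than the spread between replicates in all 150 values. Leaving out a library moves a group mean by less than the SD of that group, so such values could hardly pass this limit. Without I-KO 1, Lmod1 went from 0.05 to -0.09 and Synm from 0.02 to -0.06. With column totals made equal 9 of the 10 remained above 0 (lowest -0.02), without lox/lox 1 it was 8, without lox/lox 3 it was 7 and without I-KO 1 it was 6. With each library left out, the median log2 difference of the 10 genes ran from 0.03 to 0.20, the summed level in I-KO over lox/lox from 0.03 to 0.23 (log2), and the highest over the lowest summed level from 1.24, without I-KO 1, to 1.44. Without both libraries highest in acinar genes the last value was 1.21. The genes called by limma numbered 4, with 3 to 5 when a library was left out, and 635 at an unadjusted p of 0.05. The pathway lists had 0 called under every alternative, with smallest adjusted p from 0.628 to 1. Deviations of same-numbered libraries had r of -0.014, 0.184 and -0.009, within the range of -0.355 to 0.283 over all pairs of a lox/lox and an I-KO library. Such values from groups this small cannot show whether the numbers pair the mice. The replicate block gave log2 differences of the contractile genes from 0.05 to 0.36. Replicate number 4 has no lox/lox library, so the block took the library labelled I-KO 4 out of the comparison. Its values for the 10 genes repeat those without that library. The part of tissue sampling, of vessels and of library preparation in the level of I-KO 1 was not tested.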
